A study of Mus musculus with 6 samples.

Results

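Transcripts of 10 circadian clock genes were compared between mouse retinae that lacked Rb1, p107 and Hells and retinae that lacked only Rb1 and p107. The members were the rows of the count table named Clock, Per1, Per2, Per3, Cry1, Cry2, Nr1d1, Nr1d2, Dbp and Tef, which are 10 of its 24062 genes. All 10 had enough counts to be tested (a count sum of at least 10 over the 6 libraries), as did 16904 genes in all.

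The clock of a mammalian cell is a feedback loop of transcription. CLOCK, or its relative NPAS2, pairs with BMAL1 (the product of Arntl) and activates genes that carry E-boxes, among them those of the PER and CRY proteins, which return to the nucleus and block their own activation. REV-ERB alpha and beta, made from Nr1d1 and Nr1d2, repress Arntl, and the ROR receptors oppose them at the same sites. DBP and TEF activate D-box genes and carry the rhythm to output genes. The retina runs such a clock in several of its cell types, where it is known for timing dopamine release, photoreceptor coupling and visual sensitivity.

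Whole retinae at postnatal day 21 were sequenced, from mice labelled C57BL/6 and described as C57BL/6N in the methods of the study. The Rb1/p107/Hells group (hereafter TKO, 3 libraries) and the Rb1/p107 group (DKO, 3 libraries) both carried Chx10-Cre, floxed Rb1 and a germline deletion of p107, and the TKO also carried floxed Hells. Chx10-Cre acts in retinal progenitors in a mosaic pattern, so both groups keep cells in which the floxed genes are intact, and no wild-type retina was part of the comparison. The labels do not say whether the 3 samples of a group came from separate animals, so p-values measure the spread between these samples. No hour of collection is given in the labels either. Transcripts of a running clock change over the day, so a difference in that hour between the groups could not be told apart from genotype.

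Libraries held between 10343907 and 14203098 counts. Hells itself, which checks the labels, stood at 60.8 to 83.4 normalized counts in the TKO and at 395 to 678 in the DKO (log2 fold change -2.91, edgeR adjusted p = 0.00359). A normalized count is the raw count divided by the library's relative size after TMM scaling, and every log2 fold change below is TKO over DKO. A gene passed the test at an adjusted p of at most 0.05 in edgeR's quasi-likelihood test with Benjamini-Hochberg adjustment over the 16904 genes.

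To show the elements named above, 250 bases before the annotated start are printed for Per1 and Cry1, which passed the test, and for Per3, the Per gene that did not. The sequences are from RefSeq on GRCm38.p6 and read 5′ to 3′ on the strand of the gene, at chr11:69098699-69098948 (plus strand) for Per1, chr10:85185055-85185304 (minus strand) for Cry1 and chr4:151044666-151044915 (minus strand) for Per3. The Per1 window lies within the annotated span of the gene, whose annotated start is further upstream. Capitals mark E-boxes (CACGTG), E'-boxes (CACGTT, or AACGTG on the other strand) and D-boxes (TTATGTAA).
Per1 promoter: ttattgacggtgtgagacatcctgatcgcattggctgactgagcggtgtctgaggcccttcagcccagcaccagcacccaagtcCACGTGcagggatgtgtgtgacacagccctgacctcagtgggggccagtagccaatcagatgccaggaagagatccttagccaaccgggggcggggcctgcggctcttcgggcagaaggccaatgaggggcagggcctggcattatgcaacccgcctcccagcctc
Cry1 promoter: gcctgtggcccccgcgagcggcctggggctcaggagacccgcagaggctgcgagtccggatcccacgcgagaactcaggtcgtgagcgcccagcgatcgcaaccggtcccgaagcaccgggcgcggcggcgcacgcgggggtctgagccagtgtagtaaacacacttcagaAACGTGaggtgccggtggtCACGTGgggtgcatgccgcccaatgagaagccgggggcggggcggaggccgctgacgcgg
Per3 promoter: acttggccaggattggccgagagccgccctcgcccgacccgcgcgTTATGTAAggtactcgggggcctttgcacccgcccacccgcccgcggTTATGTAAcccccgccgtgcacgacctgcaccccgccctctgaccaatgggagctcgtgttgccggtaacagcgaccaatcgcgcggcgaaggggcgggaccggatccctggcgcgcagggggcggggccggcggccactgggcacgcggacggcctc

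Positions were counted back from the start to the first base of a match. The Per1 window held 1 E-box at -166, the Cry1 window an E'-box at -79 and an E-box at -60, and the Per3 window D-boxes at -205 and -158. Over windows from 250 bases before to 50 after the start, on both strands, an E-box was found in 7.15% of all 32851 RefSeq mouse promoters, an E'-box in 4.68% and this D-box in 0.938%. The table held 13 promoters of 9 members, matched by symbol, and none for Per2. E-boxes were found in 4 of the 13, those of Per1, Cry1 and both of Tef (at -127 and -138), and E'-boxes in 3, those of Cry1, Cry2 (at -166) and Nr1d1 (at -28). Tef, Cry2 and Nr1d1 did not pass the test. Of the members that passed, only Per1 and Cry1 had a window, too few to relate these motifs to the test. The windows of Clock, Dbp, Nr1d2 and the second of Per1 (chr11:69099902-69100151) held none of the 7 motifs searched, and no member's held the other D-box form (TTACGTAA, 0.119% of all promoters), the cAMP response element (TGACGTCA, 1.79%) or the REV-ERB and ROR element in its A form (0.219%) or G form (0.216%). For Cry2, Nr1d1 and Dbp, the bases after the RefSeq start were not found in a GENCODE M21 transcript of the gene, so the place of these windows is less certain. All these matches describe letters in a window and say nothing of binding in these retinae.

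The 10 clock genes were chosen with earlier results of these data known. Of these, 3 were higher in the TKO and 0 were lower. The 3 were Per1 by 1.62-fold, Cry1 by 1.46-fold and Per2 by 1.32-fold. The background over all genes was 7.35% called higher and 9.20% called lower. All 3 encode repressors of the loop, as do Per3, Cry2, Nr1d1 and Nr1d2, which did not pass the test. Clock and Nr1d1 had folds of 0.968 and 0.997, and Per3, Cry2, Nr1d2, Dbp and Tef had folds of 1.12 to 1.18 that did not pass the test.

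**Figure D1:**
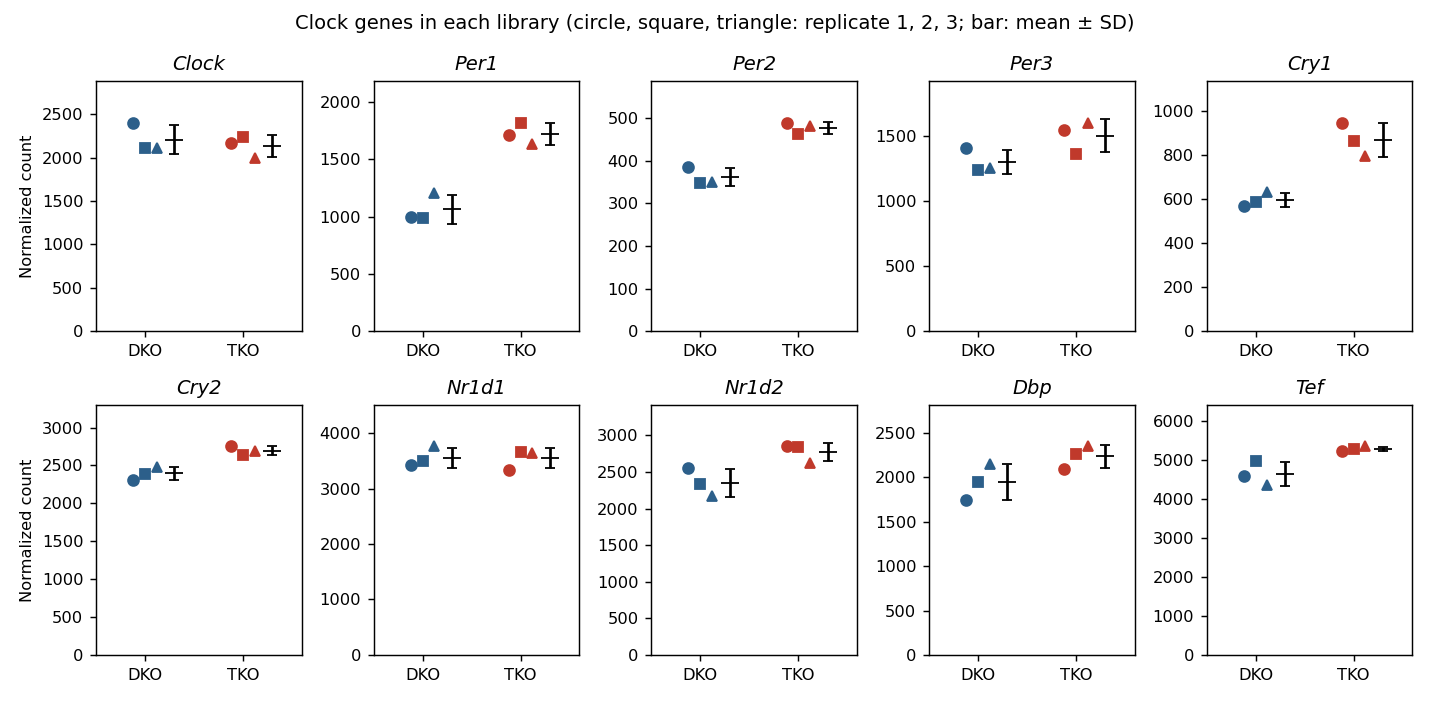
Normalized counts of the 10 clock genes in each library, with DKO in blue on the left and TKO in red on the right of each panel, on axes that start at 0. Circles, squares and triangles are replicates 1, 2 and 3, and bars are the mean ± SD (n = 3). The groups are apart for Per1, Per2, Cry1, Cry2, Nr1d2 and Tef, and overlap for Clock, Per3, Nr1d1 and Dbp.

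Clock, at chr5:76209868-76304792 on the minus strand, encodes the DNA-binding partner of BMAL1 in the activating arm. TKO libraries 1, 2 and 3 held 2174, 2242 and 1998 normalized counts of Clock, and DKO libraries 1, 2 and 3 held 2404, 2113 and 2114. The groups overlapped, with the highest value in DKO 1 and the lowest in TKO 3. The log2 fold change was -0.048 (SE 0.0872, 95% interval -0.25 to 0.15, edgeR adjusted p = 0.743), and an interval of this width leaves room for a fold between 0.842 and 1.11.

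Per1, at chr11:69095217-69109960 on the plus strand, encodes the PER protein whose gene is also switched on acutely by light and cAMP signalling. Its normalized counts were 1710, 1821 and 1636 in the TKO libraries and 995, 991 and 1211 in the DKO libraries. All TKO libraries were above all DKO libraries, and DKO 3 stood above the other DKO libraries. Means were 1722 ± 93.1 and 1066 ± 126 (SD, n = 3), which gave a log2 fold change of 0.69 (SE 0.0992, 95% interval 0.47 to 0.92, edgeR adjusted p = 0.00706). The call held with each of the 6 libraries left out in turn (edgeR adjusted p = 0.00279 to 0.0407), and by p-value Per1 ranked 227 of 16904 genes.

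Per2, at chr1:91415982-91459324 on the minus strand, encodes a PER protein that, like PER1, binds the CRY proteins. It had the fewest counts of the 10, with 490, 462 and 482 normalized counts in the TKO and 386, 348 and 351 in the DKO. The groups did not overlap and spread little, with a coefficient of variation of 2.99% in the TKO and 5.75% in the DKO. The log2 fold change was 0.40 (SE 0.0923, 95% interval 0.19 to 0.61, edgeR adjusted p = 0.0230). The call was lost when any 1 of 4 libraries was left out (edgeR adjusted p = 0.0675 without TKO 1, 0.0757 without TKO 2, 0.0510 without DKO 1 and 0.0945 without DKO 2) and with scaling to total counts only (log2 fold change 0.24, edgeR adjusted p = 0.125). With 1 library left out, the log2 fold change of Per2 ranged from 0.37 to 0.45.

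Per3, at chr4:151003652-151044665 on the minus strand, encodes the PER protein that the core loop can run without. TKO libraries held 1546, 1362 and 1603 normalized counts of Per3, and DKO libraries 1408, 1238 and 1257. DKO 1 was above TKO 2, so the groups overlapped. Its log2 fold change of 0.21 (SE 0.0916, 95% interval -0.0012 to 0.42) did not pass (edgeR adjusted p = 0.153).

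Cry1, at chr10:85131700-85185064 on the minus strand, encodes the stronger and later-acting of the CRY repressors. It gave 947, 866 and 794 normalized counts in the TKO and 570, 586 and 634 in the DKO. Every TKO library exceeded every DKO library, with TKO 3 the lowest of its group and DKO 3 the highest of its own. Means were 869 ± 76.7 and 597 ± 33.1 (SD, n = 3), which gave a log2 fold change of 0.54 (SE 0.0926, 95% interval 0.33 to 0.75, edgeR adjusted p = 0.00993). With 1 library left out, the call was lost without DKO 2 (log2 fold change 0.53, edgeR adjusted p = 0.0507). It held narrowly without TKO 2 and without DKO 1 (edgeR adjusted p = 0.0481 and 0.0461).

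Cry2, at chr2:92403646-92434043 on the minus strand, encodes the other CRY repressor. Its normalized counts were 2751, 2638 and 2694 in the TKO and 2314, 2387 and 2483 in the DKO. The groups were apart, but the gap was narrow, and the log2 fold change of 0.17 (SE 0.0724, 95% interval 0.0039 to 0.34) did not pass after adjustment (edgeR adjusted p = 0.143).

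Nr1d1, at chr11:98767932-98775333 on the minus strand, encodes REV-ERB alpha, a haem-binding repressor of Arntl. TKO libraries held 3339, 3653 and 3650 normalized counts and DKO libraries 3425, 3489 and 3760. The groups overlapped over most of their range, and the log2 fold change was -0.0043 (SE 0.0832, 95% interval -0.19 to 0.19, edgeR adjusted p = 0.976). Nr1d2, at chr14:18204054-18239127 on the minus strand, encodes REV-ERB beta, which shares that role. It had 2849, 2835 and 2625 normalized counts in the TKO against 2553, 2338 and 2167 in the DKO, and the groups were just apart. The log2 fold change of 0.24 (SE 0.0874, 95% interval 0.035 to 0.44) did not pass (edgeR adjusted p = 0.101).

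Dbp, at chr7:45705088-45710203 on the plus strand, encodes the D-box activator whose transcript swings widely over the day in many tissues. TKO libraries held 2094, 2267 and 2348 normalized counts of Dbp and DKO libraries 1740, 1948 and 2153. The groups overlapped because DKO 3 was above TKO 1, and the log2 fold change of 0.20 (SE 0.0972, 95% interval -0.023 to 0.42) did not pass (edgeR adjusted p = 0.191). Tef, at chr15:81802421-81826863 on the plus strand, encodes a related D-box activator. With 5228, 5277 and 5353 normalized counts in the TKO and 4594, 4985 and 4371 in the DKO, Tef had the tightest TKO group of the 10 members (coefficient of variation 1.19%). The groups were apart, and the log2 fold change of 0.18 (SE 0.0863, 95% interval -0.013 to 0.38) did not pass (edgeR adjusted p = 0.174).

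As a group, 8 of the 10 log2 fold changes were above 0 and 2 below, with a median of 0.20 beside -0.011 over all 16904 genes. Because the members were chosen with earlier results of these data known, the values over all genes are set beside them as a description and not as a test. In 6 members the TKO libraries all lay above the DKO libraries, and in 0 below, where 18.0% of all genes tested were apart in the first sense and 20.6% in the second. At an unadjusted p under 0.05, 5 members were higher and 0 lower in edgeR's test (over all 16904 genes, 2588 or 15.3% were higher and 3004 lower at that level). DESeq2 called 3 members higher and 0 lower, and 1473 higher and 1753 lower over all genes it tested. The 3 that DESeq2 called were Per1, Cry1 and Per2, with log2 fold changes of 0.70, 0.55 and 0.41 and DESeq2 adjusted p-values of 7.57e-07, 0.00022 and 0.0126. The 8 positive log2 fold changes stayed above 0 under each scaling tried, and that of Nr1d1 was 0.0021 with median-ratio scaling. With total counts only, which also moved the median of all genes to -0.17, they shrank to 0.54 for Per1, 0.38 for Cry1 and 0.24 for Per2, and to 0.075 for Nr1d2, 0.053 for Per3, 0.046 for Dbp, 0.027 for Tef and 0.013 for Cry2. Clock genes varied less between replicates than most genes, with a median within-group coefficient of variation of 6.72% (2.91% to 9.20%) beside 12.7% over all genes, a measure that also depends on how high the counts are. None of the 10 reached a fold of 2. With that fold, a mean count of at least 10 and an edgeR adjusted p of at most 0.05, 1.97% of all genes passed in the higher direction and 4.40% in the lower.

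**Figure D2:**
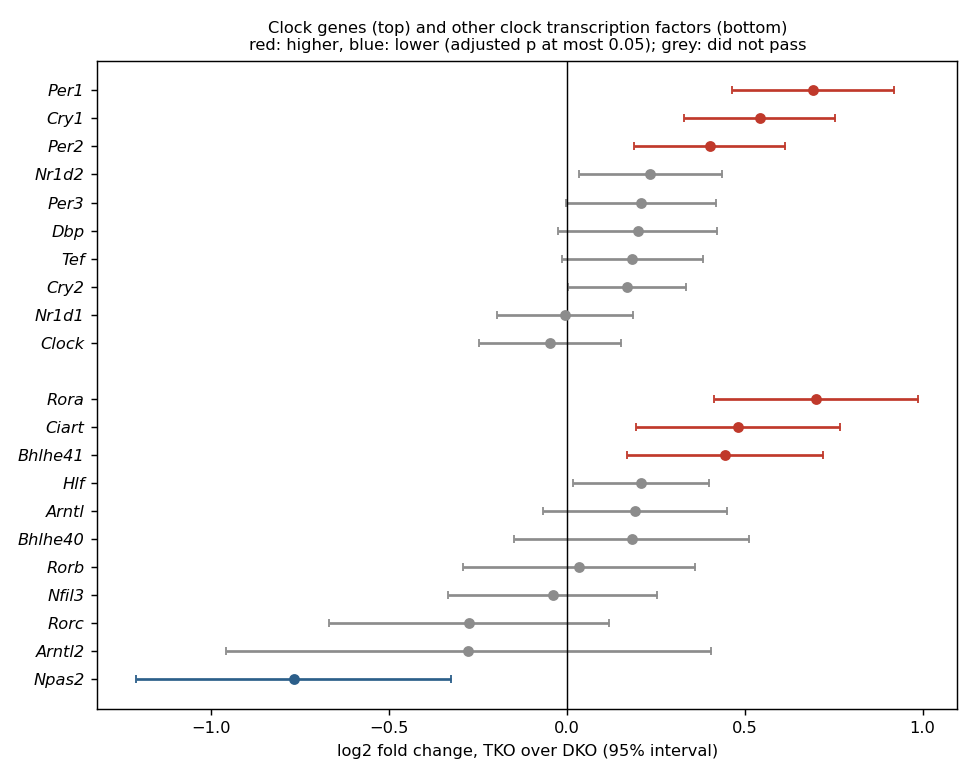
Log2 fold change of TKO over DKO with its 95% interval for the 10 clock genes (top) and 11 other clock transcription factors (bottom). Red marks genes that were higher and blue genes that were lower at an edgeR adjusted p of at most 0.05; Per1, Cry1 and Per2 are the red genes of the top block.

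Ratios between members of the same library do not depend on scaling. The log2 ratio of Per1 to Per3 was 0.15, 0.42 and 0.030 in TKO 1, 2 and 3 and -0.50, -0.32 and -0.053 in DKO 1, 2 and 3. Per1 thus exceeded Per3 in raw counts in every TKO library and fell short of it in every DKO library. Raw counts also depend on length, which is 5631 exon bases for Per1 and 9608 for Per3. Per kb of exon, Per1 was above Per3 in both genotypes (means 24.2 and 12.4 in the TKO, 14.96 and 10.7 in the DKO). The shares that follow are of raw counts and take no account of length. Of all Per counts, Per1 supplied 44.0% to 50.0% in the TKO and 35.7% to 43.0% in the DKO, while Per3 supplied 37.4% to 43.1% and 44.6% to 50.5%. The share of Per2 was 12.7% to 13.1% and 12.5% to 13.8%, and these ranges overlapped.

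The log2 ratio of Per1 to Clock was -0.35, -0.30 and -0.29 in the TKO and -1.27, -1.09 and -0.80 in the DKO. The mean difference of 0.74 was the largest of the 8 ratios computed between members, and the TKO values lay closer together than the DKO values. Per1 and Clock had the highest and the lowest log2 fold change of the members, so this size follows from values given above. Per1 was likewise apart relative to Dbp, with log2 ratios of -0.29, -0.32 and -0.52 in the TKO and -0.81, -0.97 and -0.83 in the DKO. The ratio of Per2 to Per3 was -1.66, -1.56 and -1.73 against -1.87, -1.83 and -1.84, apart by a smaller mean difference of 0.19. Cry1 supplied 22.8% to 25.6% of raw Cry counts in the TKO and 19.7% to 20.3% in the DKO, again without overlap. These shares take no account of length, which is 3340 exon bases for Cry1 and 6320 for Cry2. Of all single genes tested, 18.0% were apart with the TKO higher and 20.6% with the TKO lower. How often other gene pairs are apart was not counted. With 3 libraries against 3, the smallest two-sided p that an exact permutation test of such a ratio can give is 0.1.

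The 5 other pairs that were compared overlapped between genotypes. Nr1d1 and Dbp on the one hand and Arntl on the other peak at opposite times of day in tissues with a running clock. The log2 ratio of Nr1d1 to Arntl was 1.09, 1.40 and 1.62 in the TKO and 1.62, 1.54 and 1.52 in the DKO, and that of Dbp to Arntl was 0.42, 0.71 and 0.98 and 0.65, 0.70 and 0.72. Both ratios spread more widely over the TKO libraries than over the DKO libraries. The ratio of Dbp to Tef (means -1.24 and -1.26) and that of Per1 to Per2 (1.85 and 1.55) overlapped too, as did that of Nr1d1 to Nr1d2 (0.36 and 0.60).

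**Figure D3:**
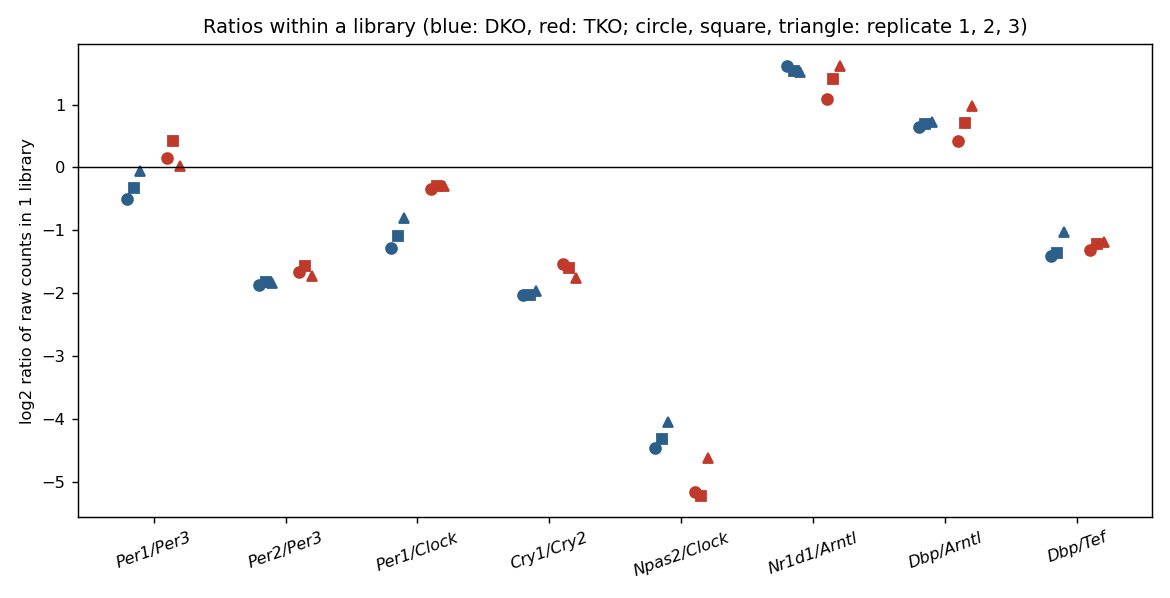
Log2 ratio of the raw counts of gene pairs within each library, DKO in blue and TKO in red, with circles, squares and triangles for replicates 1, 2 and 3. Per1/Per3, Per2/Per3, Per1/Clock, Cry1/Cry2 and Npas2/Clock are apart between the genotypes, and the ratios to Arntl and Dbp/Tef overlap.

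Levels between genes were compared per kb of annotated exon and per 1000000 scaled counts. In the DKO the order was Nr1d1 (91.4), Dbp (51.4), Tef (46.7), Nr1d2 (34.4), Cry2 (29.95), Per1 (14.96), Cry1 (14.1), Clock (12.7), Per3 (10.7) and Per2 (4.89). Dbp and Tef, Per1 and Cry1, and Cry1 and Clock were neighbours whose libraries overlapped. In the TKO, Nr1d1 (91.1), Dbp (59.1), Tef (53.1), Nr1d2 (40.5) and Cry2 (33.7) kept their places. Per1 (24.2) and Cry1 (20.6) stood clear of Clock in the TKO, Per3 (12.4) and Clock (12.3) were the neighbours that overlapped, and Per2 (6.45) was again lowest. The exon length is the union over all annotated transcripts, which is 13727 bases for Clock and understates the level of a gene whose long forms are little used.

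**Figure D4:**
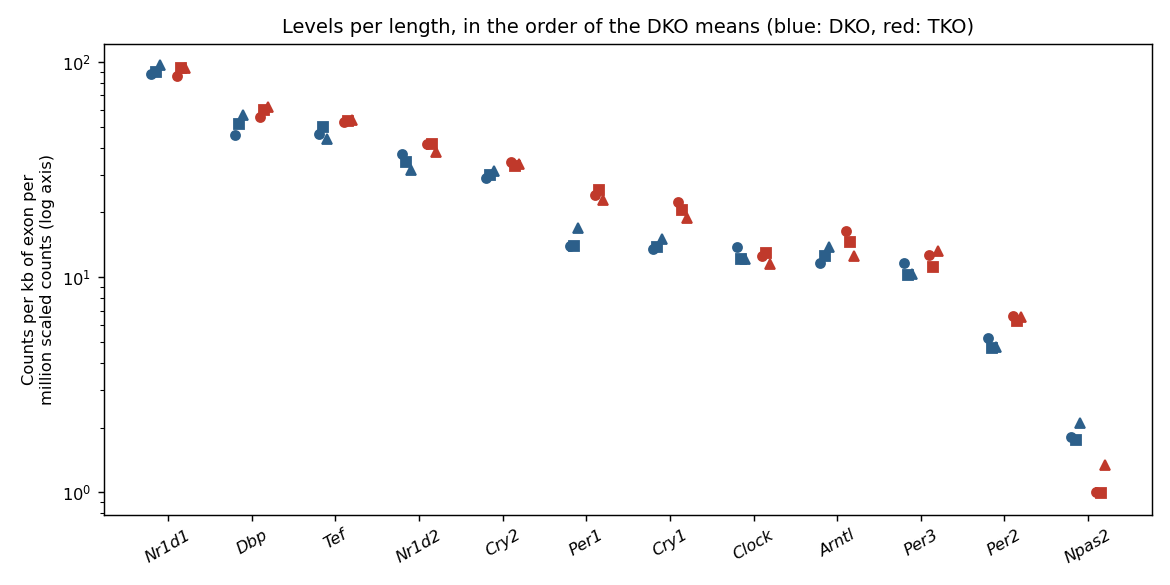
Level of the 10 clock genes, Arntl and Npas2 in counts per kb of exon per 1000000 scaled counts, on a log axis, ordered by the DKO mean, with DKO in blue and TKO in red and 1 point per library. Per1 and Cry1 lie near Clock in the DKO and above it in the TKO.

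Beside the 10 members, 44 other genes of the clock pathway were listed by role, of which 42 were tested. Of these, 9 were higher and 3 lower (median log2 fold change 0.10), where 7.35% of all genes tested were higher and 9.20% lower. The same shares stand beside the counts of each list below, as a description. These lists too were chosen with earlier results of these data known. Scaled to total counts only, 4 of the 42 were higher. Those that lost their calls included Ciart, Bhlhe41, Por and Adcyap1 (edgeR adjusted p = 0.120, 0.0899, 0.178 and 0.0582). Among the 11 other transcription factors, 3 were higher and 1 lower. Rora, an activator of Arntl, was higher with 3720, 3415 and 2814 normalized counts in the TKO and 2102, 1793 and 2224 in the DKO (log2 fold change 0.70, edgeR adjusted p = 0.0108). Ciart, a repressor of the CLOCK and BMAL1 pair, had log2 fold change 0.48 (edgeR adjusted p = 0.0351), and Bhlhe41, which encodes the repressor DEC2, 0.44 (edgeR adjusted p = 0.0394). Of the exon bases of Bhlhe41, 19% are shared with another annotated gene. Leaving out 1 library at a time, Ciart lost its call in 6 of 6 fits, Bhlhe41 in 4 and Rora in 2, with edgeR adjusted p-values of up to 0.116, 0.129 and 0.0527.

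Npas2, the relative of Clock, was the transcription factor that was lower. Its normalized counts were 60.8, 60.0 and 81.0 in the TKO and 109, 106 and 128 in the DKO (log2 fold change -0.77, edgeR adjusted p = 0.0311), a call lost in 5 of 6 fits that left out a library. Its log2 ratio to Clock was -5.16, -5.22 and -4.62 in the TKO and -4.46, -4.32 and -4.05 in the DKO, so Npas2 was a minor transcript beside Clock in both. Arntl, whose product pairs with either, held 1565, 1382 and 1188 normalized counts in the TKO and 1112, 1200 and 1308 in the DKO (log2 fold change 0.19, edgeR adjusted p = 0.272). These ranges overlapped.

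Among the 12 kinases, ubiquitin ligases and partners of clock proteins, 2 were higher and 2 lower. Usp2, a deubiquitinase that acts on clock proteins and whose own transcript cycles in many tissues, was higher with 2068, 2162 and 1357 normalized counts in the TKO and 646, 761 and 843 in the DKO. Its log2 fold change of 1.31 (edgeR adjusted p = 0.00691) held in all 6 fits that left out a library. Csnk1e, a kinase of PER proteins, was lower by a log2 fold change of -0.29 (edgeR adjusted p = 0.0361), and Timeless, better known in mammals as a replication fork protein, by -0.88 (edgeR adjusted p = 0.0218). The calls of Csnk1e and Timeless were lost in 5 and 4 of the 6 fits, with edgeR adjusted p-values of up to 0.126 and 0.0919.

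Of 7 outputs of the clock or of glucocorticoid signalling, 1 was higher and 0 lower. It was Por, the electron donor of cytochrome P450 enzymes (log2 fold change 0.36, edgeR adjusted p = 0.0463, and up to 0.157 with 1 library left out). DESeq2 called 1 output lower, and at an unadjusted p under 0.05 edgeR's test gave 1 lower, namely Wee1, a kinase that holds cells before mitosis (log2 fold change -0.99, edgeR adjusted p = 0.0511), named after its value was seen. Of 14 genes of retinal light, dopamine and melatonin signalling, 12 were tested, 3 were higher and 0 lower. Drd4, a photoreceptor dopamine receptor whose transcript is under clock control, held 502, 670 and 471 normalized counts in the TKO and 171, 200 and 369 in the DKO (log2 fold change 1.15, edgeR adjusted p = 0.0271). Adcy1, a calcium-stimulated adenylyl cyclase, had log2 fold change 0.93 (edgeR adjusted p = 0.0185), and Adcyap1, the neuropeptide PACAP of melanopsin ganglion cells, 0.85 (edgeR adjusted p = 0.0355). Each of these 3 lost its call in at least 4 of the 6 fits, and the largest edgeR adjusted p-values were 0.106, 0.0753 and 0.117. No gene of this list was lower at an unadjusted p under 0.05 in edgeR's test or by DESeq2 (0 in each).

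The genotypes also differed in markers of cell types, and in bulk tissue fewer cells of a type cannot be told apart from less RNA per cell. All 8 rod markers were higher in the TKO, and their sum was 684670, 583848 and 337187 normalized counts in TKO 1, 2 and 3 and 118827, 114916 and 219182 in DKO 1, 2 and 3. DKO 3, highest of its group in rod markers, was also highest in Per1 and Cry1, as in Drd4 and Adcy1, and in the TKO the order of Cry1 was that of the rod sum. DKO 3 was also highest of its group in Cry2, Nr1d1 and Dbp, which did not pass the test, but not in Clock, Per3, Nr1d2 or Tef. The orders differed elsewhere. Per1 was highest in TKO 2 and the rod sum in TKO 1, Cry1 was lower in DKO 1 than in DKO 2 and the rod sum was higher, and Per2 was highest in DKO 1 among the DKO libraries. The 8 markers of dividing cells were lower, with sums of 489 to 2026 in the TKO and 5073 to 10780 in the DKO (Top2a log2 fold change -3.21, edgeR adjusted p = 0.00780). The part of either in the clock gene results was not tested.

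**Figure D5:**
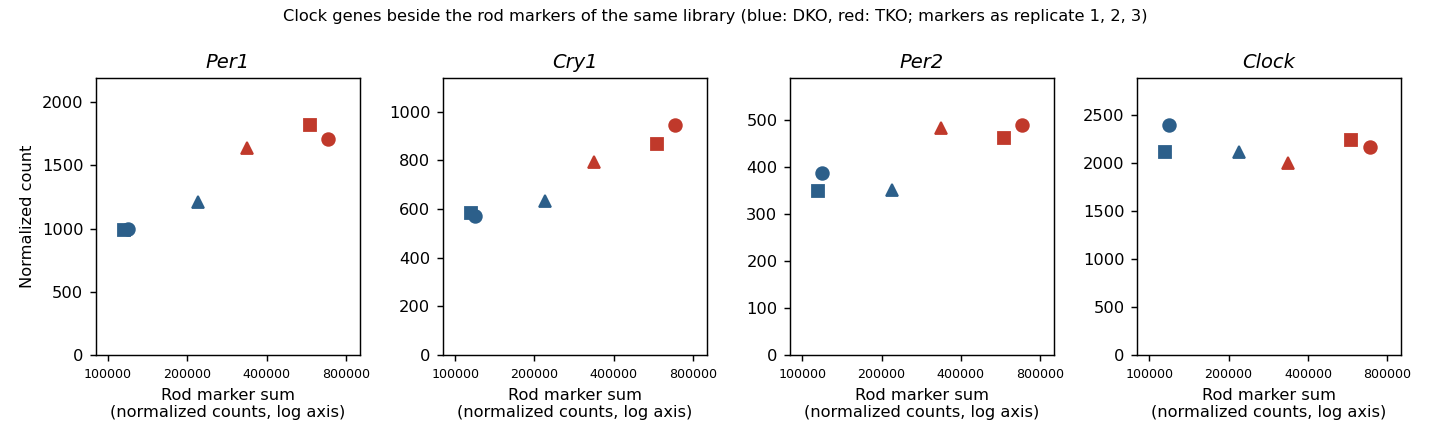
Normalized counts of Per1, Cry1, Per2 and Clock against the summed rod markers of the same library (normalized counts, log axis), DKO in blue and TKO in red, with circles, squares and triangles for replicates 1, 2 and 3. Per1 and Cry1 are higher in DKO 3 than in the other DKO libraries, at 1211 and 634 normalized counts, and Clock shows no such order.

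Other marker lists moved as well. Of 8 Müller glia markers 4 were higher and 2 lower, with sums of 63476 to 64187 in the TKO and 50178 to 53349 in the DKO (Glul log2 fold change 1.15, edgeR adjusted p = 0.00548), and of 8 microglia markers 6 were lower (1247 to 2280 and 3036 to 4367, Csf1r log2 fold change -1.03, edgeR adjusted p = 0.0135). Lens crystallins and related genes summed to 519 to 3470 in the TKO, highest in TKO 2, and to 105 to 109 in the DKO, with 4 of 8 higher (Cryaa log2 fold change 5.98, edgeR adjusted p = 0.00752). Of the 5 blood genes Alas2 was tested and higher (log2 fold change 1.77, edgeR adjusted p = 0.00942), and 4 haemoglobin genes were at 0 in every library. Summed markers of cones (2 of 8 higher), bipolar cells (2 of 8 higher), pigment epithelium (1 of 7 higher) and endothelium (1 of 6 higher) overlapped between the genotypes. At an unadjusted p under 0.05 in edgeR's test, 8 of 8 cone markers were higher (median log2 fold change 0.90), as were 3 bipolar, 1 pigment epithelium and 1 endothelium markers, and DESeq2 called 3 cone, 2 bipolar, 1 pigment epithelium and 1 endothelium markers higher. Sums of amacrine, horizontal and ganglion cell markers overlapped too, and of these genes edgeR's test called 0 of 20. At an unadjusted p under 0.05 it gave 2 higher and 4 lower of these 20, and DESeq2 called 1 higher and 3 lower. Without TKO 2, the library with the most lens transcripts, the edgeR adjusted p was 0.0401 for Per1, 0.0481 for Cry1 and 0.0757 for Per2, and the lens sums of TKO 1 and TKO 3 (626 and 519) remained above those of the DKO. The part of these cell types in the clock gene results was not tested.

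For each member, the gene with the most similar pattern was sought among 14986 genes with a mean of at least 10, by Pearson r of log2 normalized counts over the 6 libraries, a measure that includes the difference between genotypes. Per1 lay nearest to Supt7l (r = 0.998), Cry1 to Pptc7 (r = 0.9998), Per2 to Nbas (r = 0.997), Per3 to Mtmr4 (r = 0.990) and Cry2 to Slc9a8 (r = 0.998). For Nr1d1 it was Adra1d (r = 0.997), for Nr1d2 Aasdhppt (r = 0.997), for Dbp Exoc8 (r = 0.996), for Tef Aagab (r = 0.985) and for Clock Zbtb8os (r = 0.982). Each is the highest of 14986 values of r on 6 points and is given as a description. Among the members themselves, Per1 and Cry1 were nearest to each other (r = 0.965), Cry2 (r = 0.959) and Per2 (r = 0.905) were nearest to Cry1, and Clock had no close member (at most r = 0.236, with Nr1d2).

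In 4 members, exons share bases with a gene on the other strand, and the strand setting of the counting is not given in the sources used here. They are Dbp (18% of exon bases, with Sphk2), Nr1d1 (8.55%, with Thra), Cry2 (4.67%, with D930015M05Rik) and Tef (2.45%, with Gm17597). Sphk2 and Thra had log2 fold changes of 0.14 and -0.26 (edgeR adjusted p = 0.327 and 0.100). The 6 other members, Per1, Per2 and Cry1 among them, share no exon base with another annotated gene.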

How the data were processed

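Poly(A) RNA of 6 whole retinae (3 TKO, 3 DKO) was made into TruSeq Stranded mRNA libraries and sequenced as paired ends. The deposited values are raw counts of reads per gene symbol, which the authors made, per the methods of the study, with STAR on GRCm38 (up to 3 alignments per read) and HTSeq; the submitters' processing notes name TopHat2, featureCounts and DESeq2 instead, and the strand setting of the counting is not given in the sources used here. Reads with more than 1 alignment make genes with near-identical copies less certain.

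The labels gave the genotype and number of each library. Genes with a count sum of at least 10 were tested with edgeR 4.0.16 in R 4.3.3 (TMM scaling, quasi-likelihood F test, TKO against DKO, all 6 libraries, no covariate), with Benjamini-Hochberg adjustment over 16904 genes. Standard errors were derived from the log2 fold change and its F value, and intervals are 95%. Alternatives were DESeq2 1.42.0, other scalings, filters and dispersion estimates, a replicate block, each library left out and a rule that adds a fold of at least 2 and a mean of at least 10. Between replicates the chi-square of the counts was 8.61 to 25.3 per degree of freedom, so none was a copy of another within counting noise.

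The members and gene lists were chosen with earlier results of these data known. Named beside the members were Hells, Arntl, Npas2, up to 5 genes per pathway list that passed the test, the gene nearest in pattern to each member (log2 of the normalized count plus 1) and the most abundant gene of marker lists whose sums did not overlap; of these, 2 are not reported here. Noct and Drd1 were found in the table under older symbols. Gene spans, exons and overlaps are from GENCODE M21 and promoters from RefSeq, both on GRCm38. The ATAC-seq and other measurements of the study were not analysed here.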

Additional observations from a re-analysis of the deposited data

How the results depend on the processing

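Apart from the added fold rule, which no member met, the call of Per1 was lost with the replicate block, that of Cry1 with the block and without DKO 2, and that of Per2 in 6 of 14 alternatives. The count of clock genes higher, 3 as reported, was 0 with that rule and 1 to 3 with 1 library left out (1 without DKO 2), and the count lower was 0 under each alternative. Of the other pathway genes, 9 higher became 4 with total counts only, 2 with the fold rule and 1 to 8 with 1 library left out, and 3 lower became 0 with the fold rule and 0 to 4 with 1 library left out.

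Same-numbered libraries of the genotypes did not deviate together over all genes (correlations of deviations 0.0464, -0.0442 and -0.140). These correlations use deviations from means of 3 libraries and cannot decide whether equal numbers share a litter or batch. The labels do not say so either way. With the replicate block, clock genes higher were 0 (edgeR adjusted p = 0.0566 for Per1, 0.0599 for Cry1 and 0.0664 for Per2), other pathway genes 0 higher and 0 lower, and calls over all genes 106 in place of 2799. Leaving out 1 library gave 647 to 3590 calls over all genes, with fewest without DKO 2 (647), TKO 2 (712) and DKO 1 (811) and 1307 without TKO 1. Over all genes, scaling to total counts only took the median from -0.011 to -0.17 on the log2 scale and the share of calls that were higher from 44.4% to 23.0%.

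Log2 fold changes near 0 changed sign, for Clock to 0.0034 without TKO 3 and 0.017 without DKO 1 (range -0.083 to 0.017 with 1 library left out), and for Nr1d1 to 0.0021 with DESeq2 and with median-ratio scaling and to 0.037 without TKO 1 or without DKO 3 (range -0.031 to 0.037). Of the values of single genes under alternatives, 254 kept their direction and side of the threshold, 76 kept the direction and lost the call and these 6 changed sign. The cause was not tested. With 3 libraries a genotype and log2 standard errors of 0.0724 to 0.0992 for the members, intervals of members that did not pass reach log2 fold changes of up to 0.44.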
